A study of Mus musculus with 2 samples.

Results

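CD8 T cells in which no transcript of the checkpoint receptors Pdcd1, Lag3 and Havcr2 was counted were described in mouse pancreatic tumours profiled by droplet-based single-cell RNA-seq. A barcode was kept if it had 500 genes or more and no more than 15% mitochondrial counts. It was taken as a CD8 T cell with at least 2 counts summed over Cd3d, Cd3e, Cd3g and Trac, at least 1 count of Cd8a or Cd8b1, no count of Cd4 or Foxp3, and at most 5 counts of the keratins Krt8, Krt18 and Krt19. The cells described here also had 0 counts summed over Pdcd1, Lag3 and Havcr2, and are called checkpoint-negative, so they were chosen by their own measured counts of these rule genes. They numbered 202 of 22472 kept cells, 19 of them from the control tumours and 183 from the knockout tumours. CD8 T cells with at least 1 checkpoint count, called checkpoint-positive, numbered 91 and 520. A count is a unique molecular identifier (UMI) and stands for 1 captured transcript.

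The tumours grew in the pancreas from implanted KPC cells, a mouse pancreatic cancer line, and were taken on day 21. Knockout mice carried Csf1r-Cre and the floxed Porcn allele (Csf1r-Cre;Porcnfl/fl), so that Porcn is meant to be lost where the Csf1r promoter is active, chiefly in monocytes and macrophages. Controls were littermates with the same floxed allele (Porcnfl/fl, labelled WT). Tumours of 5 mice went into a single library per genotype, so there was no replicate, the spread between mice is unknown, and genotype and library cannot be told apart. Ranges in parentheses after a value are exact 95% intervals that cover counting error only, and no difference between the libraries was tested.

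CD8 T cells recognise peptides on MHC class I and kill target cells with granzymes and perforin. Naive and central memory cells carry homing receptors such as CCR7 and the transcription factors LEF1 and TCF1 (Tcf7), and pass between blood and lymphoid organs. T cells stimulated for long in a tumour come to express PD-1 (Pdcd1), LAG-3 and TIM-3 (Havcr2), receptors that restrain their response. Absence of checkpoint counts can mark a resting cell, but also a cell whose few checkpoint transcripts were not captured.

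The control and knockout libraries held 13766 and 12251 barcodes with 173934025 and 137527647 UMIs, of which 11664 and 10808 barcodes were kept. The libraries shared 46 barcodes, and 0 of these were checkpoint-negative cells. Porcn, the enzyme that prepares Wnt proteins for secretion, had 5 UMIs in 273 control macrophage-gated cells and 0 in 282 knockout ones (cells with at least 3 counts of C1qa, C1qb and C1qc and 0 of the CD3 and Trac genes). Counts from the 3′ end check the deletion only if they fall in the deleted part, which is not given in the sources used here. Checkpoint-negative cells held 0 and 0 Porcn UMIs, where the floor of 3 counts stands for 50.8 and 4.19 counts per 1000000 UMIs (CPM). Csf1r, whose promoter drives the Cre, had 0 and 1 UMIs in them.

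The cell type label was checked against T cell genes. Cd3e, which the rule used, was counted in 17 of 19 control and 145 of 183 knockout checkpoint-negative cells. Of genes the rule did not use, Themis, needed for T cell development, was counted in 14 and 138 cells and the adaptor Skap1 in 15 and 170. The receptor chain gene Trbc2 was counted in 11 and 149, although reads of the near-identical Trbc1 may be split between the pair. Within knockout, other T cell genes were counted in fewer cells than Themis, Skap1 and Trbc2. Cd2 was counted in 11 and 108 cells, Lck in 10 and 136, Thy1 in 10 and 126 and Cd247 in 8 and 105. Fewer cells held Lat (5 and 78), Trbc1 (5 and 70) and Cd5 (2 and 41). After each cell was thinned to 1000 UMIs, Skap1 was found in 61.1% (35.7–82.7) of control and 69.2% (62.0–75.8) of knockout cells, against 0% and 1.06% of macrophage-gated cells, whose median depths were 4301 and 5710.5 UMIs before thinning. Transcripts of both CD8 chains occurred in 52.6% (28.9–75.6) and 62.3% (54.8–69.3) of checkpoint-negative cells. Cd8a alone was seen in 4 and 23 cells and Cd8b1 alone in 5 and 46.

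Checkpoint-negative cells made up 17.3% of 110 CD8 T cells in control (10.7–25.7) and 26.0% of 703 in knockout (22.8–29.4), a ratio of 1.51 (0.938–2.56). Of the CD3-gated cells they were 10.7% of 177 (6.59–16.3) and 11.2% of 1634 (9.71–12.8), a ratio of 1.04 (0.649–1.77). Both intervals of the ratio include 1. With a minimum of 1000 genes per cell, the shares of CD8 T cells were 13.7% and 24.8%, and their ratio of 1.82 (1.03–3.48) has an interval above 1. Every other alternative on CD8 T cells gave an interval that includes 1. Among them were 1.72 (0.847–4.09) in cells of at least 3000 UMIs and 1.27 (0.939–1.74) after thinning to 1000 UMIs. Of all kept cells, checkpoint-negative cells were 0.163% and 1.69%, a ratio of 10.4 (6.47–17.7), beside 0.943% (0.776–1.14) and 6.5% (6.05–6.99) for CD8 T cells as a whole.

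Depth differed between the groups. Checkpoint-negative cells had a median of 2044 UMIs in control (range 971 to 9607) and 3429 in knockout (range 879 to 20142), and checkpoint-positive cells of 3699 and 4599. Among CD8 T cells under 2000 UMIs, 47.1% (23–72.2) in control and 46.3% (32.6–60.4) in knockout were checkpoint-negative, and at 5000 UMIs or more 11.4% (3.20–26.7) and 12.9% (9.04–17.6). The share of checkpoint-negative cells was larger among shallow than among deep cells in both pools, with intervals that overlap in control. In between, the shares were 10.3% and 37.8% from 2000 to 3000 UMIs and 13.8% and 29.4% from 3000 to 5000 UMIs. Thinning every CD8 T cell to 1000 UMIs left 49 of 109 control cells (45.0%) and 399 of 701 knockout cells (56.9%) without a checkpoint count, and 31 and 217 of these had one at full depth. Just outside the checkpoint limit, 12 control and 100 knockout CD8 T cells had exactly 1 checkpoint count. At the T cell limit, 4 and 13 checkpoint-negative cells had exactly 2 CD3 or Trac counts, and 1 and 9 cells that met every other term had 1. At the CD8 limit, 5 and 34 cells had exactly 1 Cd8a or Cd8b1 count, and 27 and 302 cells that met every other term had 0.

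**Figure D1:**
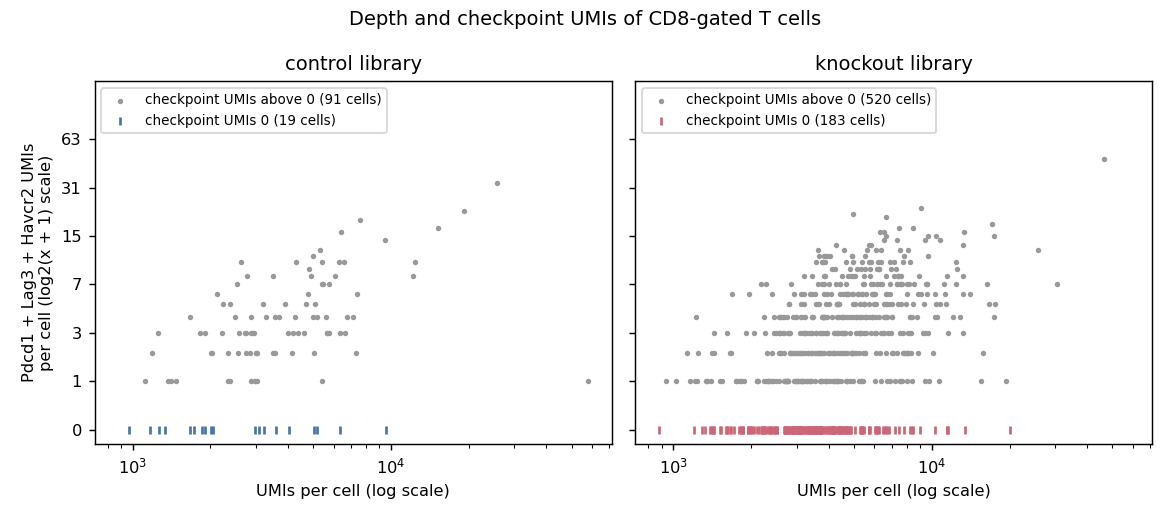
UMIs per cell (log scale) against the summed UMIs of Pdcd1, Lag3 and Havcr2 (log2 scale after adding 1) for CD8-gated T cells of each library. Coloured ticks on the 0 line are the 19 control and 183 knockout checkpoint-negative cells and grey points the 91 and 520 checkpoint-positive cells. Medians of 2044 and 3429 UMIs for the ticks lie to the left of 3699 and 4599 for the grey points.

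Genes of naive and memory T cells were described first. Ccr7, a lymph node homing receptor, was counted in 0 control and 25 knockout checkpoint-negative cells and reached 75.4 CPM (56.7–98.4) in knockout, at least 1.49-fold higher than the control floor of 3 counts. Lef1 (chromosome 3, 131110471 to 131224356 on GRCm38) had 4 UMIs in control, or 67.7 CPM (18.4–173), and 214 UMIs in knockout, or 299 CPM (260.2–342), a ratio of 4.42 (1.70–16.4). Klf2, which drives expression of trafficking receptors, stood at 67.7 CPM (18.4–173) and 293 CPM (255–336), a ratio of 4.33 (1.67–16). The control value of Klf2 rests on 4 UMIs in 2 cells, 3 of them in 1 cell. Il7r, the receptor for the survival cytokine IL-7, stood at 152 CPM (69.7–289) and 451 CPM (403–503), a ratio of 2.96 (1.54–6.54). Lef1, Klf2 and Il7r were higher in knockout, with ratio intervals above 1. Tcf7 had 152 CPM (69.7–289) and 231 CPM (197–268), a ratio of 1.51 (0.778–3.37). S1pr1, which lets T cells leave tissue, had 84.6 CPM (27.5–198) and 105 CPM (82.4–131), a ratio of 1.24 (0.508–3.92). Of its 5 control UMIs 4 lay in 1 cell. For Tcf7 and S1pr1 the ratio interval includes 1.

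Of the 17 naive and memory genes, 10 were measured, meaning a mean of at least 100 CPM over both groups compared. At least 2-fold higher in knockout, on the scale of log2(CPM + 10), were 5 of them, and 0 were at least 2-fold lower. Over all 1602 genes measured in this comparison, 3.31% were at least 2-fold higher and 5.93% at least 2-fold lower. The genes past 2-fold were Lef1, Il7r, Klf2, the repressor Bach2 and the survival gene Bcl2, which stood at 203 CPM (105–355) and 661 CPM (603–723). The median log2 ratio of the list was 1.20, and that of all measured genes -0.10. Without the 12 knockout cells that held at least 5 marker UMIs of fibroblasts, macrophages, B cells or dendritic cells, an alternative chosen after seeing the data, it was 1.27. Without the 3 control and 70 knockout cells holding Ccr7 or Lef1, both of them genes of the list, it was 0.16.

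Checkpoint-negative and checkpoint-positive cells were then compared within each tumour pool. These groups were formed from measured counts of the same cells, so the values are a description. In knockout, Lef1 stood at 299 CPM (260.2–342) in checkpoint-negative and 23.3 CPM (18.0–29.7) in checkpoint-positive cells, Tcf7 at 231 CPM (197–268) and 26.1 CPM (20.5–32.8), and Klf2 at 293 CPM (255–336) and 39.6 CPM (32.6–47.6). S1pr1 stood at 105 CPM (82.4–131) and 8.48 CPM (5.43–12.6), and Ccr7 at 75.4 CPM (56.7–98.4) and 12 CPM (8.32–16.8). These 5 genes were 6.28 to 12.8 times higher in checkpoint-negative cells, with intervals that do not overlap. In the 308 conventional CD4 T cells of the same tumours the levels were 322 CPM for Lef1, 252 CPM for Tcf7, 239 CPM for Klf2, 82.9 CPM for S1pr1 and 48.5 CPM for Ccr7. In control, Tcf7 stood at 152 CPM (69.7–289) and 21.0 CPM (10.1–38.5), a ratio of 7.27 (2.61–19.9). Lef1 had a control ratio of 3.59 (0.808–12.9). The list had 10 measured members in knockout, 5 at least 2-fold higher and 0 lower, and 7 in control, 0 higher and 1 lower (Bcl2). Over all measured genes, 2.06% were higher and 4.38% lower in knockout, and 6.88% and 7.12% in control. The list's medians were 1.13 and 0.13, and the knockout median was 0.45 without the cells holding Ccr7 or Lef1. In control, Tcf7 and Lef1 had means under 100 CPM and were not among the 7 measured genes. The medians of the pools thus rest on different genes.

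Equal depth was also applied. At 1000 UMIs, Lef1 was found in 1 of 18 control checkpoint-negative cells, 5.56% (0.141–27.3), and in 30 of 182 knockout ones, 16.5% (11.4–22.7). Checkpoint-positive cells held it in 2.20% and 2.89%, and macrophage-gated cells in 0% and 0.709%. Tcf7 was found in 11.1% (1.38–34.7) and 17.6% (12.3–23.9) of checkpoint-negative cells, against 0% and 0% of macrophage-gated cells. For Il7r the shares were 11.1% (1.38–34.7) and 32.4% (25.7–39.7), with 17.0% and 11.0% of macrophage-gated cells, and the intervals of the checkpoint-negative cells overlap. Unthinned shares of checkpoint-negative cells were 15.8% and 33.9% for Lef1, 26.3% and 39.3% for Tcf7 and 26.3% and 58.5% for Il7r.

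Cytotoxic genes were lower in checkpoint-negative than in checkpoint-positive cells for Prf1, Gzmb, Nkg7 and Cst7, and not for granzymes A and K (Gzma, Gzmk). Perforin (Prf1; chromosome 10, 61297833 to 61304680) stood at 50.8 CPM (10.5–148) and 1180 CPM (1085–1282) in control, a ratio of 0.0430 (0.00885–0.126) that rests on 3 UMIs, and at 112 CPM (88.6–139) and 713 CPM (683–745) in knockout, a ratio of 0.157 (0.124–0.196). Granzyme B (Gzmb) stood at 339 CPM (207–523) and 1279 CPM (1179–1384) in control, and at 144 CPM (117–175) and 725 CPM (694–757) in knockout. Nkg7, a protein of cytotoxic granules, stood at 1066 CPM (819.5–1365) and 2637 CPM (2493–2787) in control, and at 1080 CPM (1005–1159) and 2399 CPM (2342–2457) in knockout. For all 3 genes the groups' intervals lay apart in both tumour pools. Gzmk had ratios of 2.49 (0.972–5.65) in control and 0.889 (0.657–1.19) in knockout, both with intervals that include 1. Of the 15 cytotoxic genes, 7 were measured in control, 1 at least 2-fold higher (Gzma) and 4 lower. In knockout 6 were measured, 0 higher and 4 lower. The lower genes were Gzmb, Prf1, Nkg7 and Cst7 in each. The medians were -1.30 and -1.16, against 0.07 and -0.03 over all measured genes, of which 7.12% and 4.38% were at least 2-fold lower. Among the 8 control checkpoint-negative cells with at least 3000 UMIs the control median was -0.17. Without the cells holding Ccr7 or Lef1 the knockout median was -0.57.

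Of the cytokine genes of stimulated T cells, Ccl4, Ccl3 and Ifng were lower in checkpoint-negative cells. Ccl4 (chromosome 11, 83662584 to 83664683), a chemokine made on antigen stimulation, stood at 67.7 CPM (18.4–173) and 3289 CPM (3128–3456) in control, and at 329.7 CPM (289–375) and 1616 CPM (1569–1663) in knockout. The related Ccl3 had ratios of 0.0192 (0.00523–0.0493) and 0.0554 (0.0364–0.0808). Interferon gamma (Ifng) stood at 102 CPM (37.3–221) and 819.5 CPM (740.3–905) in control, and at 86.6 CPM (66.4–111) and 347 CPM (325–369) in knockout. Of 7 measured genes in each pool from a list of 13, 3 were at least 2-fold lower in control and 3 in knockout, namely these, and 0 were higher. In control the other 4 had ratios above 1, Xcl1 among them at 389 CPM (247–584) and 193 CPM (155–236). The Xcl1 level of control checkpoint-negative cells rests on 23 UMIs, 20 of them in 1 cell. The list's median log2 ratio in control was 0.08 against 0.07 over all measured genes. In knockout all 7 had ratios below 1, with a median of -0.61. Among all measured genes, 7.12% were at least 2-fold lower in control and 4.38% in knockout. Ccl5, a chemokine of memory and effector CD8 T cells, was abundant in checkpoint-negative cells, at 4943 CPM (4392–5544) and 5170 CPM (5005–5340), against 3064 CPM (2909–3226) and 5887 CPM (5798–5977) in checkpoint-positive ones. It was found in 61.1% (35.7–82.7) and 61.5% (54.1–68.6) of checkpoint-negative cells at 1000 UMIs, against 7.75% and 14.9% of macrophage-gated cells. A count of Ccl5 was thus common in these cells in both pools.

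Further inhibitory and activation genes were lower or unresolved. The inhibitory receptor Ctla4 stood at 118 CPM (47.6–244) and 268 CPM (224–319) in control, and at 119 CPM (94.8–147) and 297 CPM (278–318) in knockout. Entpd1, the ectonucleotidase CD39, stood at 69.9 CPM (51.8–92.1) and 222 CPM (205–239.5) in knockout. Of 3 measured genes from a list of 11, 3 were at least 2-fold lower in control (Ctla4, Entpd1 and the ubiquitin ligase Cblb) and 2 in knockout (Ctla4 and Entpd1). Tigit and Ctla4 were both at 0 in 15 control and 117 knockout checkpoint-negative cells. Tox, a transcription factor of chronically stimulated T cells, stood at 355 CPM (220.1–543) and 763 CPM (687–845) in control, and at 541 CPM (488–597) and 944 CPM (908–980.1) in knockout. Tox was lower but still present in checkpoint-negative cells, found in 35.7% (28.8–43.1) of the knockout ones at 1000 UMIs, against 0.355% of macrophage-gated cells. Of 16 activation genes, 6 were measured and 3 lower in control, and 8 measured and 2 lower in knockout, with 0 higher. The activation list's medians were -1.09 and -0.81. Among all measured genes, 7.12% were at least 2-fold lower in control and 4.38% in knockout. The costimulatory receptor Tnfrsf9 stood at 46.1 CPM (31.7–64.7) and 266 CPM (248–286) in knockout. Of 4 measured killer lectin receptor genes, 2 were at least 2-fold lower in control and 3 in knockout, although reads may be split within this family of similar genes. Klrd1 stood at 296 CPM (258–339) and 848 CPM (814–882) in knockout.

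Glycolysis and proliferation genes were the next group. Gapdh stood at 609 CPM (427–844) and 1876 CPM (1755–2003) in control, and at 591 CPM (536–650.0) and 1396 CPM (1353–1440) in knockout. Of 19 glycolysis and hypoxia genes, 3 of 14 measured were at least 2-fold lower in control and 6 of 11 in knockout (Aldoa, Gapdh, Pgk1, Pgam1, Pkm and Tpi1), with 0 higher. The medians were -0.52 and -1.03, and 7.12% and 4.38% of all measured genes were at least 2-fold lower. Mki67, a gene of dividing cells, stood at 51.7 CPM (36.4–71.2) and 173 CPM (158–189) in knockout, and had a control ratio of 0.798 (0.333–1.65). Mki67 or Top2a was counted in 4 of 19 control and 27 of 183 knockout checkpoint-negative cells.

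Both genes of the integrin made of CD103 (Itgae) and Itgb7, which binds E-cadherin on epithelium, were higher in checkpoint-negative cells. Itgae stood at 118 CPM (47.6–244) and 29.3 CPM (16–49.2) in control, and at 72.6 CPM (54.3–95.3) and 17.7 CPM (13.1–23.3) in knockout. Itgb7 stood at 135 CPM (58.5–267) and 16.8 CPM (7.24–33.0) in control, and at 123 CPM (98.6–151) and 36.4 CPM (29.7–44.1) in knockout. Their ratios were 4.04 (1.38–10.7) and 8.08 (2.64–24.7) in control and 4.11 (2.74–6.19) and 3.38 (2.51–4.53) in knockout, all with intervals above 1. The chemokine receptor Cxcr3 was higher too, with ratios of 4.85 (1.45–14.7) and 2.12 (1.52–2.91). Cxcr6, a chemokine receptor of resident T cells, had ratios of 0.763 (0.435–1.26) in control and 0.595 (0.506–0.697) in knockout. Of 11 residency genes 3 were measured in each pool and 0 passed 2-fold in either direction, the means of Itgae and Itgb7 being under 100 CPM. The measured residency genes had medians of -0.38 in control and -0.41 in knockout. In control 1 was above 0 and 2 below, and in knockout 0 were above and 3 below.

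**Figure D2:**
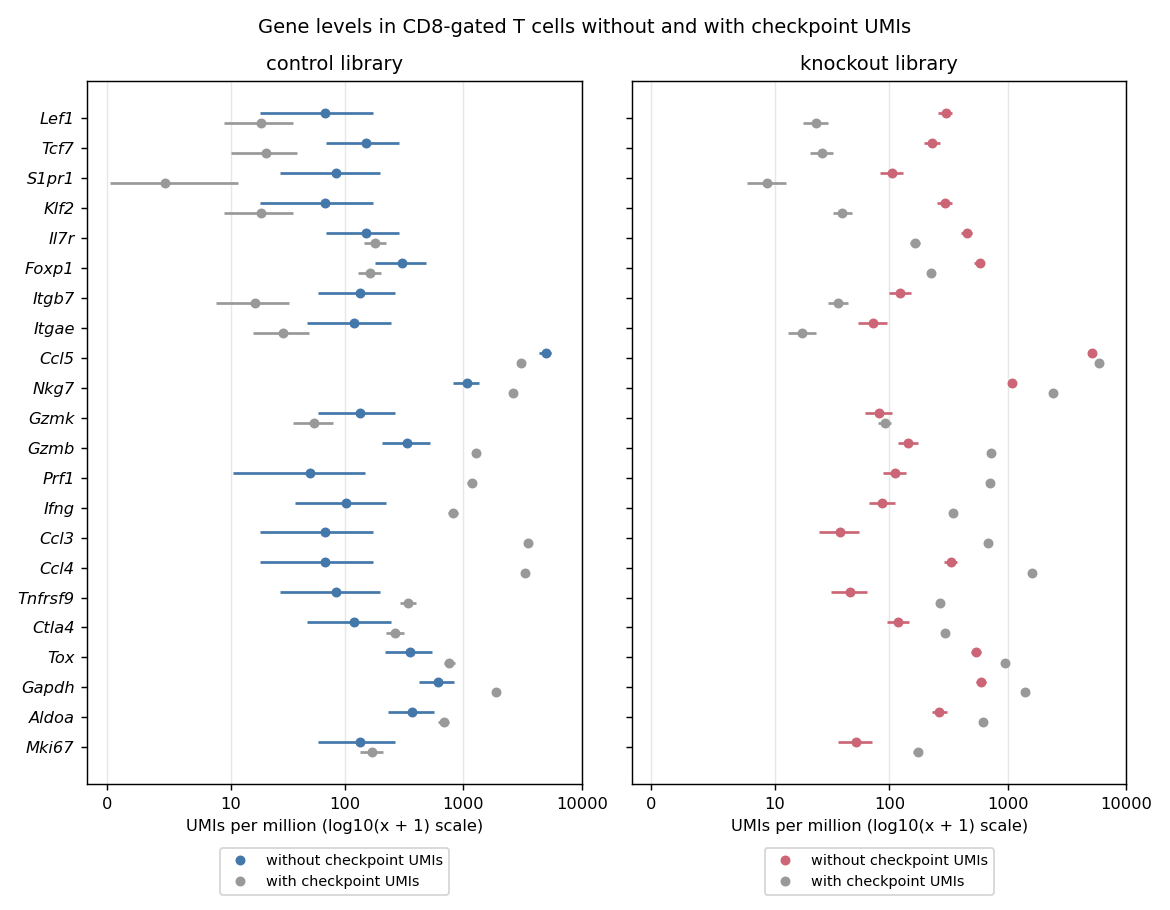
Levels of 22 genes in CPM (log10 scale after adding 1) in checkpoint-negative cells (coloured) and checkpoint-positive cells (grey) of the control and knockout libraries. Points are levels summed over cells and lines exact 95% counting intervals, hidden by the point where narrow. In knockout the naive and memory genes lie to the right of the grey points and Gzmb, Prf1, Ifng, Ccl3 and Ccl4 to the left, while Ccl5 is at 5170 and 5887 CPM.

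Further lists were compared between checkpoint-negative and checkpoint-positive cells. Of 13 measured genes of T cell receptor signalling, 0 passed 2-fold in either pool, with medians of -0.10 and -0.06. The MHC class I list had medians of -0.38 and -0.11, with 2 genes lower in control (H2-T22 and H2-T23, similar copies whose reads may be split). Of type I interferon genes, 1 of 4 measured was lower in control (Ifi27l2a) and 0 of 5 in knockout. Of CD8 state transcription factors, 3 of 9 measured were lower in control (Tox, Zeb2 and Irf8) and 1 of 9 in knockout (Irf8). Their medians were -0.69 and -0.44, with 7 of 9 below 0 in control and 8 of 9 in knockout. The lower shares over all measured genes were 7.12% and 4.38%. Stress genes, which respond to tissue dissociation, had medians of 0.19 and 0.31. Ribosomal protein genes gave 19.8% and 25.8% of UMIs in checkpoint-negative cells and 23.1% and 23.9% in checkpoint-positive ones.

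**Figure D3:**
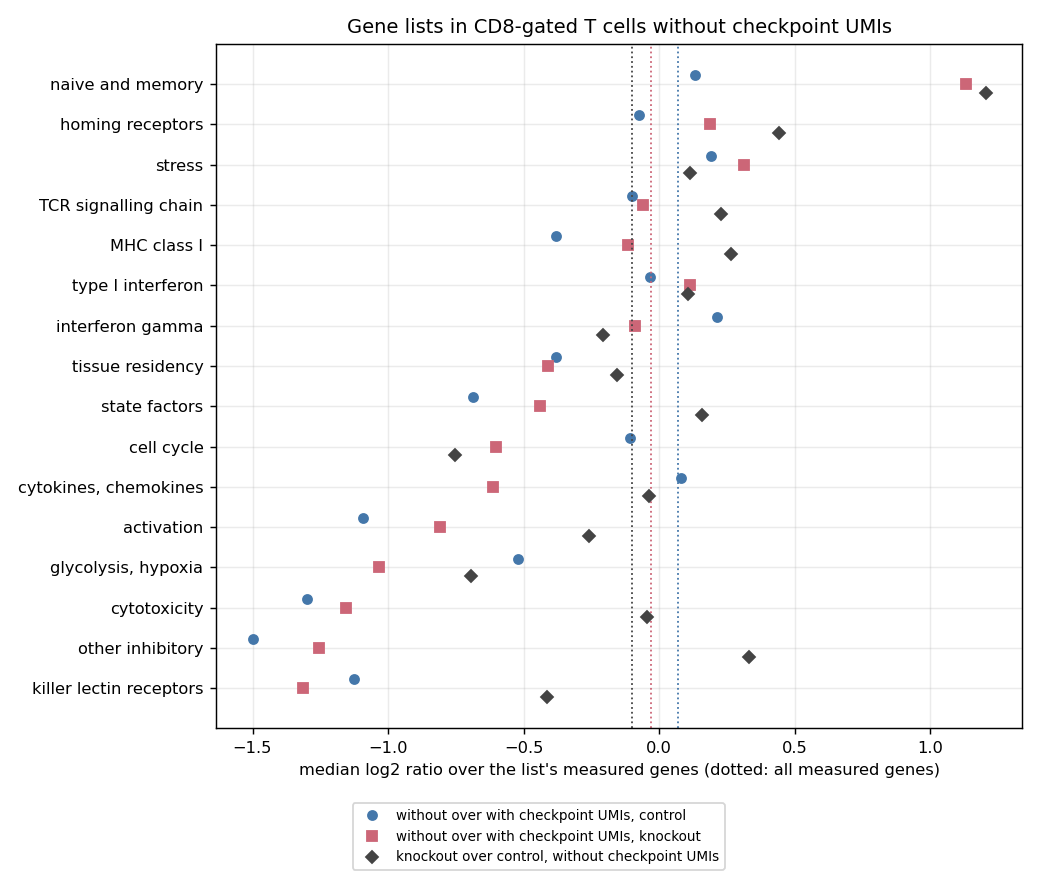
Median log2 ratio of the measured genes of each list, for checkpoint-negative over checkpoint-positive cells in control and in knockout, and for knockout over control in checkpoint-negative cells. Dotted lines give the median of all measured genes in each comparison. The naive and memory list is at 0.13, 1.13 and 1.20, and the cytotoxic list at -1.30, -1.16 and -0.05. The value of 0.13 leaves out Tcf7 and Lef1, whose means were under 100 CPM in control.

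Single genes were ranked by the interval bound nearest to 1 in the pool where it was weaker. Gm2682, a noncoding transcript, stood at 491 CPM (329–705) and 54.5 CPM (35.6–79.8) in control, and at 225 CPM (192–262) and 33.9 CPM (27.5–41.4) in knockout. Also higher in checkpoint-negative cells were Gramd3, Slco3a1, the small GTPase Arl4c, Thada, Fgf13, the endosomal sodium-proton exchanger Slc9a9 and the translation inhibitor Pdcd4. Their ratios were 2.56 to 6.15 in control and 1.67 to 3.52 in knockout. Lower, besides Ccl3, Prf1, Ccl4, Ifng and Gzmb, were Rgs16, Gm156 and Tmem163. Rgs16, a regulator of G protein signalling, had 0 UMIs in control checkpoint-negative cells against 268 CPM (224–319) in checkpoint-positive cells, at least 5.28-fold lower, and a knockout ratio of 0.199 (0.133–0.288). Tmem163 had ratios of 0.201 (0.0731–0.444) and 0.342 (0.281–0.415).

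The checkpoint-negative cells varied among themselves. Each cell was thinned to 1000 UMIs and scored for a count of a naive group (Ccr7, Lef1, S1pr1 and Klf2) and of an effector group (Gzma, Gzmb, Gzmk, Prf1, Nkg7 and Ccl5). Of 182 knockout cells, 19 had the naive group only (10.4%), 50 both (27.5%), 90 the effector group only (49.5%) and 23 neither (12.6%). Of 18 control cells, 0 had the naive group only, 2 both, 11 the effector group only (61.1%) and 5 neither. Of 519 checkpoint-positive knockout cells, 7 had the naive group only and 451 the effector group only. A naive-group count was found in 11.1% (1.38–34.7) of control and 37.9% (30.8–45.4) of knockout checkpoint-negative cells. These intervals overlap. Macrophage-gated cells had one in 11.1% and 14.9%, with 10.3% and 13.8% for Klf2 alone and 0% and 0.709% for Lef1. An effector-group count was found in 72.2% (46.5–90.3) and 76.9% (70.1–82.8) of checkpoint-negative cells, against 8.49% and 15.6% of macrophage-gated cells. These groups are cuts on counts and not cell types. Without thinning, 60.7% of knockout checkpoint-negative cells had a naive-group count and 92.3% an effector-group count.

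**Figure D4:**
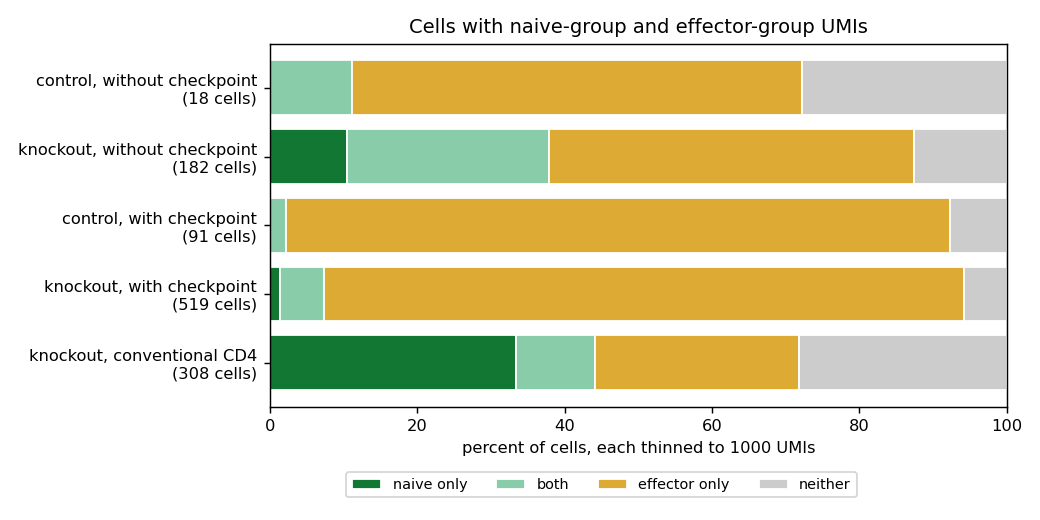
Percent of cells with a UMI of the naive group only, of both groups, of the effector group only or of neither, after thinning each cell to 1000 UMIs, with 1 bar for each group of T cells and library. In the knockout checkpoint-negative bar 10.4% have the naive group only and 27.5% both, and in the control bar, of 18 cells, 0% have the naive group only.

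In knockout, the 70 checkpoint-negative cells with a count of Ccr7 or Lef1 (median 3856 UMIs) were set beside the other 113 (median 3080 UMIs), as a description. Dapl1, a gene of naive and memory CD8 T cells, stood at 196 CPM (150.2–252) against 29.6 CPM (15.3–51.7). Tcf7 stood at 383 CPM (317–458) against 114 CPM (83.1–151), and the chromatin organiser Satb1 at 351 CPM (288–423) against 136 CPM (102–177). Id3, a transcriptional regulator of memory precursors, stood at 93.3 CPM (62.5–134) against 19.8 CPM (8.53–38.9). These genes were higher in cells with Ccr7 or Lef1. The related Id2 was lower there, at 264 CPM (209.9–328) against 667 CPM (589–751). Lower also were Ccl5 at 3054 CPM (2863–3254) against 6794 CPM (6543–7053), Gzmb at 29.0 CPM (13.2–55.0) against 232 CPM (188–284), Cxcr6 at 103 CPM (70.4–145) against 368 CPM (311–432) and the integrin subunit Itga1 at 45.1 CPM (24.6–75.6) against 222 CPM (179–273). Ccl5 was counted in 33 of the 70 cells and in 93 of the 113. Tox, at 486 CPM (411–569.9) against 583 CPM (511–662), and Bcl2, at 721 CPM (629.5–822) against 615 CPM (541–696), had overlapping intervals. The 3 control cells with such a count held 172 Ccl5 UMIs, 16 Gzmb UMIs in 1 cell and 0 Il7r UMIs.

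Between genotypes, effector genes of checkpoint-negative cells differed singly. Gzma (chromosome 13, 113093825 to 113100981) had 68 UMIs in 4 control cells, with 43, 15, 6 and 4 UMIs each, and 55 UMIs in 10 knockout cells. Its levels were 1151 CPM (894–1459) and 76.8 CPM (57.9–100), a ratio of 0.0667 (0.0459–0.0967), which rests on few control cells. Xcl1, which attracts cross-presenting dendritic cells, had 23 UMIs in 3 control and 97 in 22 knockout cells, a ratio of 0.348 (0.219–0.575). Of its 23 control UMIs, 20 lay in 1 cell. Gzmb had 20 UMIs in 3 and 103 in 27 cells, a ratio of 0.425 (0.261–0.725). Without the cells holding Ccr7 or Lef1, 1 of which had 16 of the control Gzmb UMIs, the log2 ratio of Gzma was -1.78 and that of Gzmb turned to 1.32. That of Xcl1 turned to 0.62 without the cells holding any UMI of selected genes of other cell types. These were Lyz2, C1qa, Cd79a, Ncr1, Klrb1c, Trdc, Col1a1, Krt8, Krt18 and Krt19, and 10 control and 108 knockout cells were left. In the opposite direction, Ccl4 had 4 UMIs in 4 and 236 in 48 cells, a ratio of 4.87 (1.88–18.0). Of 7 measured cytotoxic genes, 2 were at least 2-fold lower in knockout (Gzma and Gzmb) and 0 higher. Of 5 measured cytokine genes, 1 was higher (Ccl4) and 2 lower (Xcl1 and Tnfsf10). Over all 1602 measured genes, 3.31% were at least 2-fold higher and 5.93% lower. Nkg7 had a ratio of 1.01 (0.783–1.33) and Ccl5 of 1.05 (0.928–1.18), both with intervals around 1.

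Other lists were compared between genotypes in the same way. The shares over all measured genes were again 3.31% at least 2-fold higher and 5.93% lower. Of 13 measured genes of T cell receptor signalling and 13 of MHC class I, 0 passed 2-fold. Ctla4 had a ratio of 1.0 (0.466–2.57). Of 7 measured cytokine receptor genes, 1 was higher (Il7r) and 1 lower (Il2rb, a receptor chain for IL-2 and IL-15), at 355 CPM (220.1–543) and 163 CPM (135–196) for Il2rb. Of 11 measured glycolysis and hypoxia genes, 5 were at least 2-fold lower in knockout (Pfkp, Pgam1, Pkm, Tpi1 and P4ha1), with a median of -0.69. Control values of these 5 rest on 11 to 22 UMIs in 5 to 9 cells. For Pgam1, 1 cell held 10 of 17 control UMIs, and for P4ha1 6 of 11. Of 7 measured cell cycle genes, 2 were lower (Top2a and Tuba1b). Top2a rested on 9 control UMIs in 4 cells, and Tuba1b on 11 in 4 cells, 7 of them in 1 cell. In the Wnt list of 25 genes 6 were measured and 1 was higher, Lef1, which is also a naive gene. Axin2, a general Wnt target, had 0 and 8 UMIs. The activation marker Cd69 stood at 67.7 CPM (18.4–173) and 207 CPM (175–243), a ratio of 3.05 (1.17–11.4) that rests on 4 control UMIs in 3 cells.

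The genes ranked highest in knockout included genes of other cell types. C3 and Apoe had 0 UMIs in control checkpoint-negative cells and 256 CPM (220.0–295) and 215 CPM (183–252) in knockout, at least 5.03-fold and 4.24-fold higher. Col3a1 stood at 33.9 and 398 CPM, Gsn at 16.9 and 231 CPM, Fn1 at 33.9 and 295 CPM and Dcn at 67.7 and 346 CPM. Their control values rest on 1 to 4 UMIs, and the ratios were 11.8 (3.23–97.6), 13.6 (2.41–541), 8.71 (2.38–72.4) and 5.12 (1.97–18.9). These are genes of fibroblasts or macrophages, and 1 knockout cell held 51.4% of the C3 UMIs and 1 held 39.6% of the Apoe UMIs. The 7 fibroblast markers had 746 UMIs in 42 knockout cells, 94.5% of them in 5 cells, and 8 UMIs in 7 control cells. Without the 12 knockout cells that held at least 5 marker UMIs of other types, the log2 ratios were -0.57 for Col3a1, -0.23 for Gsn, -0.10 for Fn1 and -1.56 for Dcn. Those of C3 and Apoe were 2.25 and 1.64. Col3a1, Dcn and Apoe are among the markers that chose these cells, and all 19 control cells stayed. A fall in the ratios of these marker genes therefore follows from the choice of cells.

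Other ranked genes kept their direction without those cells. Pde4d, a phosphodiesterase that degrades cyclic AMP, stood at 592 CPM (413–824) and 1699 CPM (1605–1797), a ratio of 2.87 (2.05–4.14). Aff3 stood at 50.8 CPM (10.5–148) and 264 CPM (228–304). The interferon-induced Ifi27l2a stood at 118 CPM (47.6–244) and 448 CPM (401–500.3), and was counted in 46.2% and 74.5% of unthinned macrophage-gated cells. Lower in knockout, besides Gzma and Xcl1, were Gm26917, Nampt, Map2k1, St13, Gphn, Lars2, Alcam, Gramd1a and Hist1h1c, with ratios of 0.195 to 0.505. Gm26917 stood at 1083 CPM (834–1384) and 232 CPM (198–270.0). The scaffold gene Gphn stood at 1981 CPM (1638–2374) and 949 CPM (879–1023), and Lars2, a mitochondrial tRNA synthetase, at 2370 CPM (1994–2797) and 1197 CPM (1118–1280). Gphn and Lars2 were counted in all 19 control checkpoint-negative cells and in at least 94.9% of unthinned macrophage-gated cells. Nampt, an enzyme of NAD synthesis, rested on 11 control UMIs in 2 cells, 9 of them in 1 cell, and St13 had 12 of 20 control UMIs in 1 cell. Likewise, 1 cell held 14 of 20 control UMIs of Hist1h1c, and 1 cell 8 of 17 of Alcam. Without the cells marked as doublets, 1 of them in control, the log2 ratio was -0.32 for Nampt and -0.52 for St13, both short of 2-fold. That of Aff3 was 0.80 without the cells holding Ccr7 or Lef1.

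**Figure D5:**
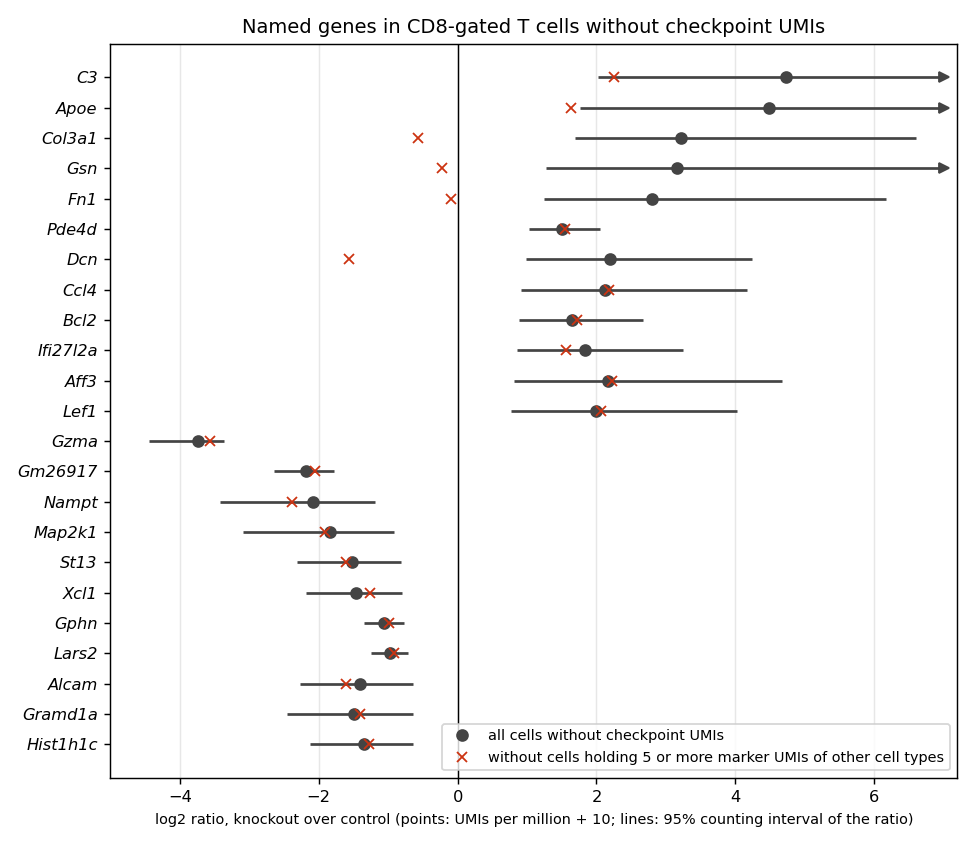
Log2 ratio of knockout over control in checkpoint-negative cells for the 23 genes named by the ranking, after adding 10 CPM (points), with the exact 95% counting interval of the plain ratio (lines, arrowheads where a bound lies past the axis). Crosses give the ratio without cells that held at least 5 marker UMIs of other cell types, and fall below 0 for Col3a1, Gsn, Fn1 and Dcn. Col3a1, Dcn and Apoe are themselves among those markers.

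Marker lists of other cells differed in how their UMIs were spread over checkpoint-negative cells. Tumour epithelial markers were spread over many cells, with 24 UMIs over 13 of 19 cells in control and 139 UMIs over 87 of 183 in knockout. This list includes Krt8, Krt18 and Krt19, whose sum the gate capped at 5 counts per cell, so its spread is partly set by the gate. Krt18, Krt19 and Krt8 had 8, 4 and 4 of the control UMIs and 28, 38 and 20 of the knockout UMIs. Plasma cell markers had 14 UMIs over 10 cells in control and 218 UMIs over 104 in knockout. In control the B cell, endothelial, acinar and red cell lists had 0 UMIs, and 9 of 11 macrophage markers were at 0 (C1qa, C1qb, C1qc, Lyz2 and Csf1r among them), with 2 UMIs in all. In knockout the macrophage list held 246 UMIs, 90.7% of them in 5 cells, and the B cell list 139 UMIs, 97.1% in 5 cells. The innate-like T cell list held 18 UMIs in 7 control cells, 10 of them in 1 cell that also held 15 of the 68 Gzma UMIs. Without that cell Gzma stood at 1005 CPM. In knockout the list held 64 UMIs in 27 cells, and the 4 cells with at least 5 of them held 0 Gzma UMIs. The part of these cell types in the other differences was not tested. Scrublet, a doublet caller, marked 1 control and 4 knockout checkpoint-negative cells, which were kept.

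Variable segments of the T cell receptor beta chain were seldom captured. A Trbv count was found in 3 of 19 control and 25 of 183 knockout checkpoint-negative cells, and the 23 knockout cells with a single segment spread over 11 segments, with Trbv12-2 the most frequent in 5 cells.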

How the data were processed

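Per the file headers, each deposited matrix was written by Cell Ranger 8.0.0 and holds unnormalised UMI counts for 32285 genes and each cell barcode. The submitters' processing notes name Cell Ranger 3.1.3 and the build mm10, and the strand setting is not given in the sources used here. Per the labels' protocols, the cell suspension was made by enzymatic digestion (30 min), red cell lysis and enrichment of viable cells, steps that can favour some cell types. Positions come from GENCODE M21 on GRCm38, where 32158 gene identifiers were found, 31436 with the same symbol.

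Cells were gated on raw counts with python 3.11.15, numpy 2.4.6, scipy 1.17.1, pandas 2.3.3 and matplotlib 3.10.9. Doublets were called with Scrublet in scanpy 1.11.5 (anndata 0.12.19, expected rate 0.08), which marked 1.27% of control and 3.16% of knockout cells, and were left in. Counts were summed over a group's cells and given as CPM. Intervals at 95% were exact Poisson for levels, Clopper-Pearson for shares and conditional binomial for ratios, and the floor for a group at 0 was 3 counts. The sums were 59072 and 715816 UMIs in control and knockout checkpoint-negative cells and 477096 and 2830586 in checkpoint-positive cells, so the control values are the least precise, with 1 UMI worth 16.9 CPM. Log2 ratios added 10 CPM, and a gene was measured at a mean of 100 CPM. Shares used cells thinned to 1000 UMIs (seed 1), leaving out 1 shallower checkpoint-negative cell per library. The calculation was tested on simulated counts. No p-value is given with 1 library per genotype.

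Ranked genes were the 12 each way between genotypes, and the 8 each way between the kinds of CD8 T cell. In them the interval bound nearest to 1 lay farther from 1 than in the other genes. They needed a UMI in 5% of cells and a level no less than 0.5 times that of non-T cells, both in the library where they were higher. Genes of the gates, mitochondrial and ribosomal genes, receptor segments, Xist and Y-linked genes were left out. The members and the 32 lists were chosen with earlier results of these data known. Some genes are not reported here, which leaves 11 ranked genes lower in knockout, and the naive list, the naive group and the split by naive genes were formed without them, after seeing the data. Alternatives changed the pseudocount, the minimum level, the weighting and the cells included.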

Additional observations from a re-analysis of the deposited data

Results flagged for a closer look

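Checkpoint-negative over checkpoint-positive ratios of some genes pointed in opposite directions in control and knockout, and the difference between the libraries was not tested. Sparc, a matrix protein gene, had log2 ratios of -4.78 and 0.50, with 1238 UMIs in 4 control checkpoint-positive cells. Col3a1 had -3.56 and 1.18, and Fn1 had -2.48 and 1.42. Of 1168 fibroblast marker UMIs in control checkpoint-positive cells, 1127 lay in 1 cell.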

How the results depend on the processing

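No paired analysis was possible because there was 1 library per genotype. Of gene ratios under the alternatives, 1304 of 1477 stayed, 162 moved past their counting interval and 11 reversed. Of list medians 587 of 616 stayed. Main counts of genes at least 2-fold higher and lower were 53 and 95 in knockout over control, 112 and 116 in control checkpoint-negative over checkpoint-positive cells, and 32 and 68 in knockout ones. A pseudocount of 50 CPM gave 29 and 36 between genotypes, 48 higher in control, and 21 and 41 in knockout. A minimum of 50 CPM gave 161 and 306, 362 and 254, and 67 higher in knockout, with a cytotoxic median of -0.36 there. A minimum of 200 CPM gave 16 and 18, 25 and 63, and 7 and 27, with a cell cycle median of -0.0534 between genotypes. With fewer or more genes measured these counts move by construction. Cells of at least 3000 UMIs gave 85 and 173, 235 higher in control with a cytotoxic median of -0.17, and a checkpoint-negative share of 21.6% in knockout. The mean over cells gave 161 lower between genotypes and turned Dcn to -0.20. Leaving out mitochondrial and ribosomal genes gave 121 higher between genotypes. Another alternative left out cells with any UMI of Lyz2, C1qa, Cd79a, Ncr1, Klrb1c, Trdc, Col1a1, Krt8, Krt18 or Krt19. It gave 116 and 303 between genotypes and 306 higher in control. Cytotoxic medians were then -0.70 between genotypes and -0.44 in control, and the cell cycle median between genotypes was -1.98. Col3a1 turned to -1.15, Fn1 to -0.72, Dcn to -1.84 and Xcl1 to 0.62. The cut at 5 UMIs, added after seeing the data, used other genes, the fibroblast, macrophage, B cell and dendritic cell marker lists. Without cells holding at least 5 UMIs of these lists, Col3a1 turned to -0.57, Gsn to -0.23, Fn1 to -0.10 and Dcn to -1.56. Col3a1 and Dcn are themselves among the markers of that cut. Without cells holding Ccr7 or Lef1, also added after seeing the data, 91 genes were higher between genotypes and 37 lower in knockout. Naive and memory medians were then 0.16 between genotypes and 0.45 in knockout, the knockout cytotoxic median was -0.57, and the control cell cycle median was 0.54. Gzmb turned to 1.32 between genotypes and Klf2 to -1.39 in control. The cause of the changes was not tested. The checkpoint-negative share was 45.0% and 56.9% after thinning to 1000 UMIs, 16.6% in knockout with Tigit and Ctla4 also at 0, 11.2% of knockout CD3-gated cells, and 0.163% and 1.69% of kept cells (ratio 10.4). Thinning to 2000 UMIs gave an effector-group share of 90.9% in control and 86.7% in knockout and a naive-group share of 53.2% in knockout, and without thinning the knockout shares were 92.3% and 60.7%. Depth limits the control values most, at 19 cells.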
